A study of Rattus norvegicus with 10 samples.

Results

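The proteasome is the cell's main machine for breaking down proteins tagged with ubiquitin. Its constitutive subunits were followed here through 36 genes, listed by gene symbol: 14 of the 20S core, 18 of the 19S regulatory particle and 4 assembly chaperones. Among probe sets annotated to 1 gene alone, the brightest by its mean across the 10 arrays stood for the gene. In this way 35 of the 36 were measured, out of 14217 genes on the array. The exception was Psmb6, whose probe set is shared with Psmb6l1. The RNA was liver RNA of Harlan Sprague-Dawley rats, all female, with 5 rats' samples in each of 2 groups. The dosed group was given indole-3-carbinol, which cabbages and their relatives yield when chewed or cut, at 300 mg per kg by gavage with corn oil as carrier. The vehicle group was given corn oil only (0 mg per kg), and both were treated on 5 days of each week for 13 weeks, although the series' design text describes 2 years. Animals are not numbered in the labels, and the p-values cover only the spread between these samples.

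The 20S core is a barrel of alpha rings around beta rings, and the beta subunits cut the substrate. The 19S particle caps the barrel: its ATPases (Psmc genes) unfold the substrate and its other subunits (Psmd genes and Adrm1) bind ubiquitin chains and remove them. NRF1 (Nfe2l1) is known to raise proteasome genes when proteolysis is impaired. NRF2 (Nfe2l2), which raises antioxidant genes, is known to act on part of them, and both bind the antioxidant response element. The comparison asks whether core and regulatory genes differ under the dose, as an NRF1 or NRF2 response would raise both.

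Because both factors bind that element, the promoters of the members were searched for its core, TGACNNNGC, on both strands. RefSeq promoters on assembly GRCr8, running from 250 bases before to 50 after the gene start, were at hand for 32 of the 36 genes. The core was present in 8 of these 32 promoters (25%), against 14.1% of the 13242 promoters of measured genes and 12.1% of all 33469. Of the 435 promoters of genes that rose, as defined below, 17.7% held it. The stretches before the gene start are shown for 6 of the 8 genes, with the element in capitals, since they cover members that differed clearly between the groups and members that did not.
Psmb5, chr15:32047406-32047464, minus strand: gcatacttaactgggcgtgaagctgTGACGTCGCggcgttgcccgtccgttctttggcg
Psmd9, chr12:39018308-39018366, minus strand: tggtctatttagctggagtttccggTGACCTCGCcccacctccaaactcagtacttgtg
Psmb2, chr5:144254965-144255023, plus strand: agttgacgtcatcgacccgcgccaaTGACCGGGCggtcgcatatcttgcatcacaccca
Psmb6, chr10:55737839-55737887, plus strand: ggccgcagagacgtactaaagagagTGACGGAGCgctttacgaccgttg
Psmd1, chr9:94157781-94157839, plus strand: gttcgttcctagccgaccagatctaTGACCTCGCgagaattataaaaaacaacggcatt
Adrm1, chr3:187642822-187642880, plus strand: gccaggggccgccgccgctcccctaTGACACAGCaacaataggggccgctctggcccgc
Psmd9 held another match further upstream, on the other strand, and Psmd1 another after its start. The remaining promoters with a match were those of Psma3 and Psmd3. The promoters of the members had a median GC content of 56%, against 59.7% for measured genes. The counts of 4 other sequences were taken on both strands in the same way. GCGTG, the core of the site bound by the aryl hydrocarbon receptor, was present in 18 of the 32 promoters (56.2%, against 44.4% of measured genes). CCAAT was present in 17 (53.1%, against 36.8%) and TGACGTCA in 1 (3.12%, against 2.7%). TGACTCAGC, which is 1 spelling of the same core with its N bases fixed, was in 0 (against 0.43%). These motifs can share bases with one another. A match of letters is a description and not a shown binding site.

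Nearly all proteasome genes were higher in dosed livers, by small and similar amounts. Of the 35 measured genes, 12 rose and 0 fell, and 34 had a positive difference, the exception being Psmc6. Their median difference was 0.29 on the log2 scale, against -0.0039 over all genes, of which 48.6% had a positive difference. The differences ran from -0.01 to 0.52, so that the largest was 1.44-fold. In 26 of the 35 genes every dosed array was above every vehicle array. Over all 14217 genes 3.32% rose, 3.11% fell, and 4.61% lay without overlap on the higher side. "Rose" and "fell" mark genes past an adjusted p of 0.05 in limma, a linear model fitted to all 31042 probe sets with Benjamini-Hochberg adjustment. At an unadjusted p under 0.05, 30 members were higher and 0 lower, against 9.62% of all genes higher and 10.2% lower. In whole liver, more RNA per cell and more cells of a type rich in it cannot be told apart. A GAPDH measure of RNA quality, given below, also differed between the groups. With it as a covariate 0 of the 35 genes passed, and its part and that of the dose cannot be told apart.

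**Figure D1:**
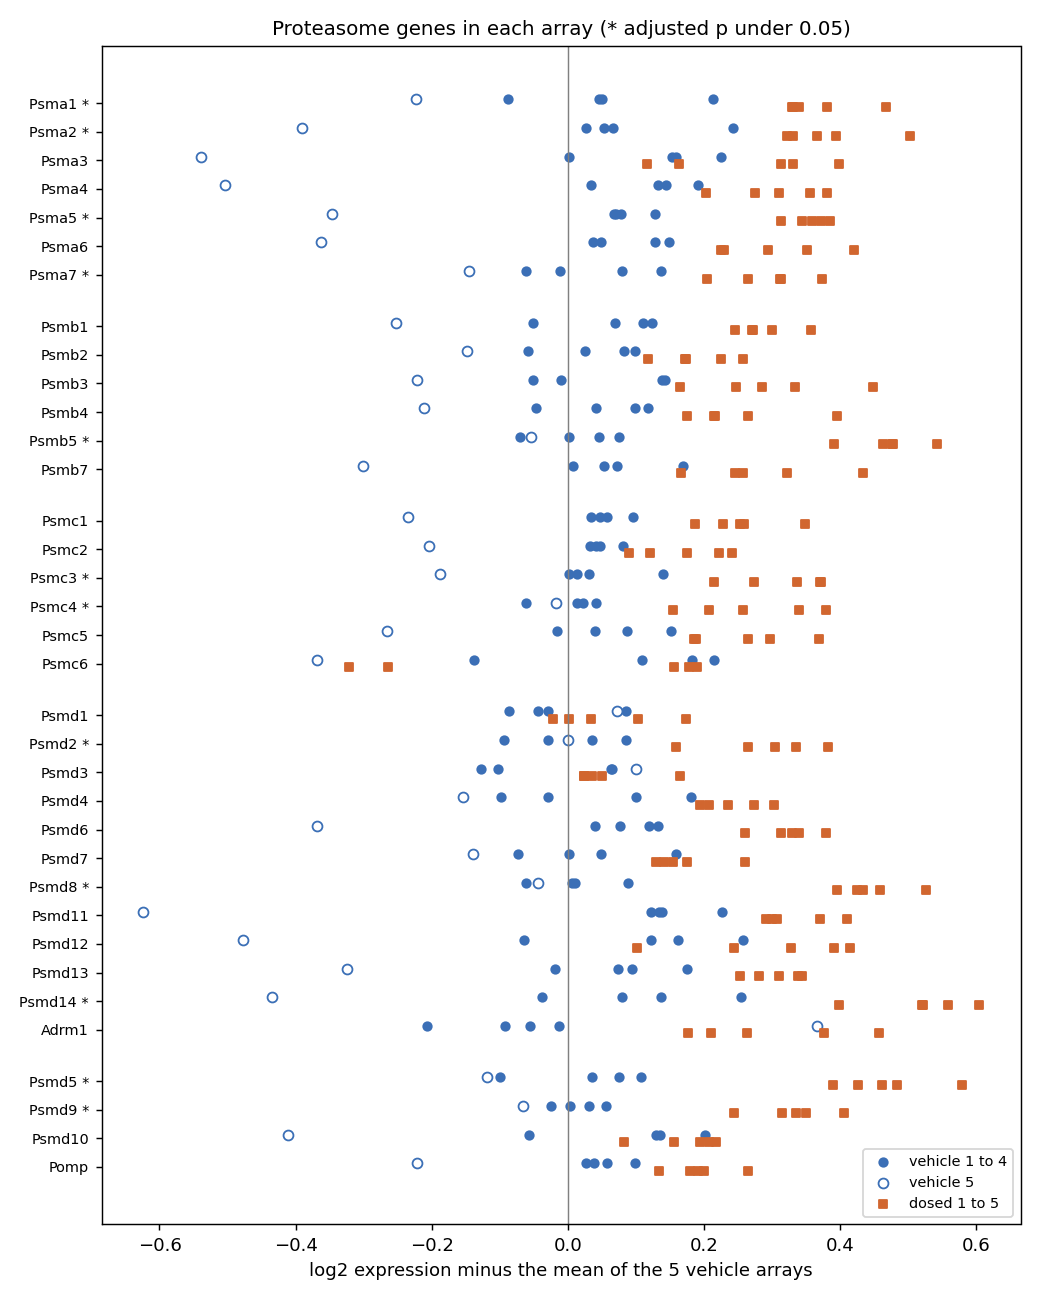
Each row is 1 of the 35 genes, grouped as alpha, beta, ATPase, non-ATPase and chaperone genes, and each point is 1 array, as log2 expression minus the mean of the 5 vehicle arrays. Dosed arrays (squares) lie to the right of vehicle arrays (circles) without overlap in 26 genes, and vehicle 5 (open circles) is the lowest of all 10 arrays in 28. The count of 28 was not set beside one over all genes.

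Core and regulatory genes moved by about the same amount. Of the 13 measured core genes 5 rose and the median difference was 0.30, and of the 18 regulatory genes 5 rose and the median was 0.28. The core genes lay closer together, between 0.19 and 0.47, while the regulatory genes ran from -0.01 to 0.52. Groups did not overlap in 11 of 13 core genes and 12 of 18 regulatory genes. Over all genes 3.32% rose, and 4.61% lay without overlap on the higher side. The median of the core genes in single dosed arrays, taken relative to the vehicle mean of each gene, was 0.29, 0.31, 0.31, 0.27 and 0.38, and that of the regulatory genes 0.30, 0.26, 0.23, 0.26 and 0.28. The same median in vehicle arrays 1 to 5 was 0.08, 0.14, 0.00, 0.05 and -0.25 for the core and 0.04, 0.14, 0.04, 0.01 and -0.20 for the regulatory genes. All 5 dosed arrays stood above all 5 vehicle arrays in both, and vehicle 5 stood well below the rest. No p is given for these medians, since the members were chosen with results of these arrays known.

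Of 2 measures of RNA quality, that of GAPDH moved with these medians and that of beta-actin did not in the vehicle group. GAPDH is read by control probe sets at both ends of its transcript, and the 3′ value exceeds the 5′ value by more when 5′ ends are lost. On the log2 scale this excess was 0.40, 0.32, 0.42, 0.45 and 0.65 in vehicle arrays 1 to 5 and 0.22, 0.29, 0.24, 0.16 and 0.24 in dosed arrays 1 to 5. Vehicle 5 had the highest value and the lowest proteasome medians, and vehicle 2 the lowest value and the highest medians among the vehicle arrays. Among the dosed arrays no such order was seen: dosed 4, with the lowest value, had the lowest core median. With this measure as a covariate the median difference was 0.07 for the core genes and 0.06 for the regulatory genes, against 0.01 over all genes. In that model 0 of the 35 genes passed limma in either direction, against 0.802% of all genes higher, and 26 of 35 had a positive difference, where 52.1% of all genes had one. At an unadjusted p under 0.05, 6 were higher and 0 lower, against 7.4% of all genes higher: Psmb5, Psmd2, Psmd8, Adrm1, Psmd5 and Psmd9. The measure lies on separate sides in the groups, with 0.16 to 0.29 in dosed and 0.32 to 0.65 in vehicle arrays, so that with 5 arrays a group its part and that of the dose cannot be told apart. The same excess for beta-actin was 1.57, 1.51, 1.70, 1.74 and 1.45 in vehicle arrays 1 to 5 and 1.43, 1.53, 1.46, 1.17 and 1.40 in dosed arrays 1 to 5. Its groups overlapped, and vehicle 5 was the lowest vehicle array, within the dosed range. With beta-actin as covariate the median difference was 0.35 for the core and 0.26 for the regulatory genes, and 6 members rose where 1.98% of all genes did: Psmb5, Psmc3, Psmd8, Psmd14, Psmd5 and Psmd9. Without vehicle 5, the median difference was 0.23 for the core and 0.20 for the regulatory genes, 16 members rose where 3.83% of all genes did, and 27 of 35 had no overlap where 6.07% of all genes had none on the higher side.

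**Figure D2:**
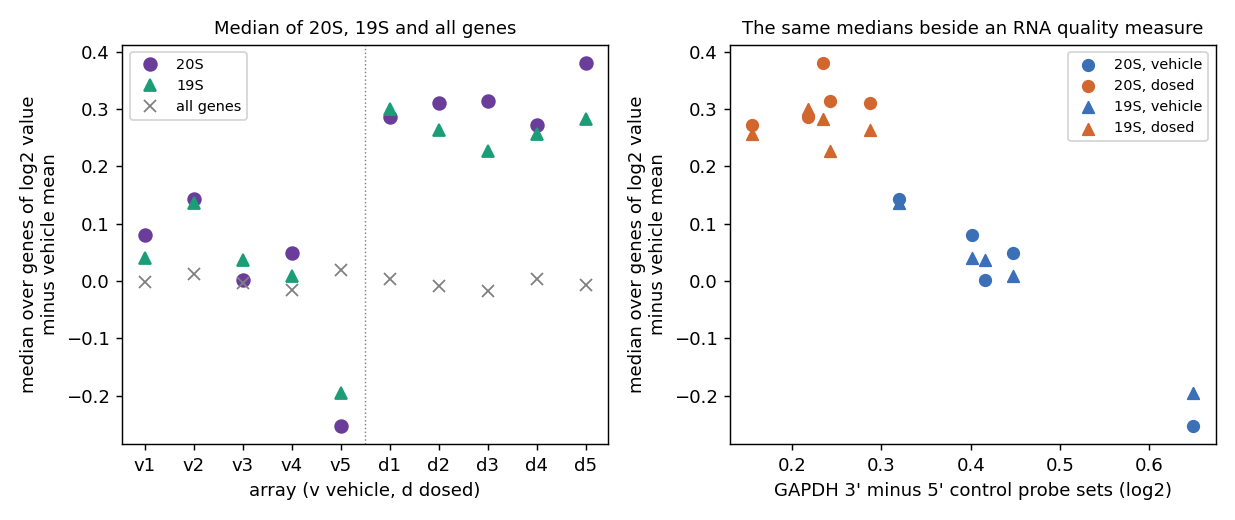
Left, the median over 13 core (20S), 18 regulatory (19S) and all 14217 genes in each array, as log2 value minus the vehicle mean of each gene; right, the core and regulatory medians against the 3′ minus 5′ difference of GAPDH on the log2 scale. Dosed arrays lie between 0.23 and 0.38 on the vertical axis, and vehicle 5 lies at -0.25 (20S) and -0.20 (19S) with the highest GAPDH difference, 0.65.

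The alpha subunits, which form the gate of the barrel and hold its inner rings, were the most uniform group. Of 7 measured, 4 rose, where 3.32% of all genes did, and the differences ran from 0.26 to 0.38. Psma1 was 10.66, 10.82, 10.52, 10.65 and 10.38 in vehicle arrays 1 to 5 and 10.94, 10.99, 10.95, 10.94 and 11.08 in dosed arrays 1 to 5 (log2). All dosed arrays were above all vehicle arrays, and the difference was 0.37 ± 0.08 (SE, n = 5 per group, limma adjusted p = 0.0182). Psma2 rose by 0.38 ± 0.10 (SE, limma adjusted p = 0.0488), Psma5 by 0.36 ± 0.09 (SE, limma adjusted p = 0.0336) and Psma7 by 0.29 ± 0.07 (SE, limma adjusted p = 0.0257).

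In Psma5 the dosed arrays lay within a narrow band, at 11.48, 11.45, 11.40, 11.43 and 11.46. The vehicle arrays 1 to 4 were also close, at 11.17, 11.22, 11.16 and 11.16, while vehicle 5 was 10.74. Psma4 (0.31 ± 0.12, SE) and Psma6 (0.30 ± 0.09, SE) were of like size and did not pass (limma adjusted p = 0.195 and 0.0992). Psma3 was measured at 0.26 ± 0.13 (SE, limma adjusted p = 0.351), and in it dosed 1 and dosed 5 lay among the vehicle arrays. A brighter probe set shared by Psma3 and Psma3l differed by 0.34 ± 0.08 (SE, limma adjusted p = 0.0367) and cannot be given to either gene alone. Vehicle 5 was the lowest of all 10 arrays in every one of the 7 alpha genes, a count not taken over all genes. Without vehicle 5 Psma3 differed by 0.13 and Psma4 by 0.18. With the GAPDH measure in the model the median of the alpha genes was 0.016 and 3 of 7 were below 0. Psma2 then lay at 0.016 ± 0.10 (SE), Psma5 at 0.065 ± 0.10, and Psma1 and Psma7 at 0.16 ± 0.11 and 0.16 ± 0.10. The call of Psma2 also ended with arrays centred on their medians (adjusted p = 0.0683), and those of Psma2 and Psma5 without moderation of the variance (adjusted p = 0.128 and 0.0836). The call of Psma1 ended on removal of vehicle 3 (adjusted p = 0.0507) and of dosed 5 (adjusted p = 0.0534). Those of Psma2 and Psma5 ended without any one of vehicle 1, vehicle 3, vehicle 4 and the 5 dosed arrays, with adjusted p up to 0.123 and 0.079, and held when vehicle 2 or vehicle 5 was left out. Psma7 kept its call only when vehicle 1, vehicle 2, vehicle 5 or dosed 4 was the array removed, and the other removals gave adjusted p from 0.0509 to 0.0692.

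Of the beta subunits, Psmb5, which carries the chymotrypsin-like site, stood out. It was 11.64, 11.61, 11.56, 11.49 and 11.51 in vehicle arrays 1 to 5 and 12.03, 11.95, 12.04, 12.04 and 12.11 in dosed arrays 1 to 5. The groups were far apart for their spread, with SDs of 0.06 and 0.05 (n = 5 each), and vehicle 5 was not the lowest array. The difference was 0.47 ± 0.06 (SE, limma adjusted p = 0.000527), a 1.39-fold rise. It was 0.46 without vehicle 5 and 0.39 ± 0.09 (SE, limma adjusted p = 0.0736) with the GAPDH measure in the model. Among probe sets of Psmb5 this was the only bright one: the others, at 5.03 and 6.41 on average, differed by 0.02 and -0.0034. Averaged, the 3 probe sets of Psmb5 gave a difference of 0.16 that missed the threshold (adjusted p = 0.138). Among measured members with a promoter at hand, the element core was in 2 of 10 that rose, Psmb5 and Psmd9, and in 5 of 21 that did not pass. Psma7 and Psmd14 rose but had no promoter at hand.

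The other beta genes differed by 0.19 to 0.30 and did not pass. Psmb7, the trypsin-like subunit, differed by 0.29 ± 0.09 (SE, limma adjusted p = 0.0991), and dosed 2, at 11.12, lay just below vehicle 2, at 11.13. Psmb1 differed by 0.29 ± 0.08 (SE, limma adjusted p = 0.0508) and passed when vehicle 2 was removed (adjusted p = 0.0483) and when vehicle 5 was (adjusted p = 0.0394). Psmb3 (0.30 ± 0.08, SE), Psmb4 (0.25 ± 0.08, SE) and Psmb2 (0.19 ± 0.07, SE) had no overlap between groups at adjusted p of 0.0647, 0.0852 and 0.142. The probe set shared by Psmb6, the caspase-like subunit, and Psmb6l1 differed by 0.21 ± 0.07 (SE, limma adjusted p = 0.112).

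Among the 6 ATPases of the regulatory base, 2 rose, where 3.32% of all genes did. Psmc3 was 10.54, 10.68, 10.57, 10.55 and 10.35 in vehicle arrays 1 to 5 and 10.91, 10.91, 10.81, 10.75 and 10.87 in dosed arrays 1 to 5, a difference of 0.31 ± 0.07 (SE, limma adjusted p = 0.0214). Psmc4 was 10.66, 10.65, 10.68, 10.58 and 10.62 in vehicle arrays and 10.98, 10.84, 10.79, 11.02 and 10.90 in dosed arrays, a difference of 0.27 ± 0.06 (SE, limma adjusted p = 0.0252). The vehicle arrays of Psmc4 lay close together, vehicle 5 included. A dim second probe set of Psmc4, at 5.23 on average, differed by 0.06, and the mean of both by 0.17 without passing (adjusted p = 0.226). The call of Psmc4 also ended after renewed quantile normalization (adjusted p = 0.0688). Psmc1 (0.26 ± 0.07, SE), Psmc5 (0.26 ± 0.08, SE) and Psmc2 (0.17 ± 0.07, SE) were without overlap but did not pass. Removal of vehicle 1, of dosed 1, of dosed 2 and of dosed 5 each ended the call of Psmc3, at adjusted p of at most 0.0619. Removal of vehicle 1, of vehicle 4, of dosed 1, of dosed 4 and of dosed 5 each ended that of Psmc4, at adjusted p of at most 0.0677.

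Psmc6 was the ATPase apart from the rest. It was 11.03, 11.11, 10.78, 11.14 and 10.55 in vehicle arrays 1 to 5 and 10.66, 11.10, 11.08, 10.60 and 11.11 in dosed arrays 1 to 5. Dosed 1 and dosed 4 lay near vehicle 5, and the other dosed arrays lay with vehicle 1, vehicle 2 and vehicle 4. The difference was -0.01 ± 0.14 (SE, 95% interval from -0.31 to 0.28, limma adjusted p = 0.985). That interval does not exclude differences as large as those of Psmc1, Psmc2, Psmc4 and Psmc5, but it ends below that of Psmc3 (0.31). The other probe sets of Psmc6 differed by -0.04 and -0.15, and without vehicle 5 the difference was -0.10.

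Among the 12 other regulatory subunits 3 rose, where 3.32% of all genes did, and these 3 include the largest difference of all members. Psmd14, the enzyme that cuts ubiquitin chains from the substrate, was 10.29, 10.46, 10.17, 10.34 and 9.77 in vehicle arrays 1 to 5 and 10.76, 10.73, 10.72, 10.60 and 10.81 in dosed arrays 1 to 5. The lowest dosed array was above the highest vehicle array, and the difference was 0.52 ± 0.11 (SE, limma adjusted p = 0.0165), a 1.44-fold rise. Both other probe sets of Psmd14 lay on the same side, at 0.60 ± 0.08 (SE, limma adjusted p = 0.000823) and 0.73 ± 0.25 (SE, limma adjusted p = 0.134). The difference was 0.41 without vehicle 5 and 0.16 ± 0.13 (SE, limma adjusted p = 0.591) with the GAPDH measure in the model. Without moderation of the variance the call of Psmd14 ended (adjusted p = 0.0736).

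Psmd8, a subunit of the lid, was the most clearly separated regulatory gene. It was 10.69, 10.77, 10.70, 10.62 and 10.64 in vehicle arrays 1 to 5 and 11.12, 11.11, 11.08, 11.14 and 11.21 in dosed arrays 1 to 5. Each group spanned less than the gap between them. The difference was 0.45 ± 0.06 (SE, limma adjusted p = 0.000623), and 0.38 ± 0.09 (SE, limma adjusted p = 0.0815) with the GAPDH measure in the model. Psmd2, a large scaffold of the base, was 10.62, 10.68, 10.73, 10.56 and 10.65 in vehicle arrays and 10.98, 10.81, 10.91, 10.95 and 11.03 in dosed arrays. Its groups did not overlap, and it rose by 0.29 ± 0.06 (SE, limma adjusted p = 0.0195). That call ended without vehicle 1, vehicle 4 or dosed 5, with adjusted p from 0.0521 to 0.0585, and after renewed quantile normalization (adjusted p = 0.052).

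Psmd2 also binds ubiquitin, and the other ubiquitin receptors, Psmd4 and Adrm1, did not pass. Psmd4 differed by 0.24 ± 0.07 (SE, limma adjusted p = 0.0841) without overlap, and passed without vehicle 2 (adjusted p = 0.0394). Adrm1, which anchors a deubiquitinase, was 7.24, 7.27, 7.32, 7.12 and 7.69 in vehicle arrays 1 to 5 and 7.59, 7.54, 7.50, 7.79 and 7.70 in dosed arrays 1 to 5. Here vehicle 5 was high, not low, and it alone overlapped the dosed arrays. The difference was 0.30 ± 0.10 (SE, limma adjusted p = 0.138), and 0.39 ± 0.07 (SE, limma adjusted p = 0.00798) without vehicle 5. With the GAPDH measure in the model it was 0.51 ± 0.15 (SE, limma adjusted p = 0.15), the largest of the 35 members there.

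The remaining lid and base subunits differed by 0.06 to 0.34 and did not pass. Psmd11 was 11.47, 11.55, 11.46, 11.45 and 10.70 in vehicle arrays 1 to 5 and 11.70, 11.74, 11.63, 11.62 and 11.63 in dosed arrays 1 to 5. Its groups did not overlap, but vehicle 5 was far below the rest. The difference of 0.34 ± 0.14 (SE, limma adjusted p = 0.229) was 0.18 ± 0.06 (SE, limma adjusted p = 0.0832) without that array. A second bright probe set of Psmd11 differed by 0.22 ± 0.08 (SE, limma adjusted p = 0.153), and a dim one, at 4.34 on average, by 0.07. Psmd6 (0.32 ± 0.09, SE) and Psmd13 (0.31 ± 0.09, SE) also had no overlap, and passed without vehicle 5 at 0.23 and 0.22 (adjusted p = 0.0245 and 0.0403). Psmd13 passed without vehicle 2 too, at 0.35 (adjusted p = 0.0485). Psmd12 differed by 0.30 ± 0.12 (SE) with overlapping groups, and by 0.18 without vehicle 5. Psmd7 differed by 0.17 ± 0.07 (SE, limma adjusted p = 0.207) in the probe set used and by 0.26 ± 0.06 (SE, limma adjusted p = 0.0397) in its other one.

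Psmd1, a scaffold of the base, and Psmd3, of the lid, showed next to no difference. Psmd1 was 8.84, 9.01, 8.90, 8.89 and 9.002 in vehicle arrays 1 to 5 and 9.10, 9.03, 8.93, 8.96 and 8.91 in dosed arrays 1 to 5. Psmd3 was 9.29, 9.48, 9.48, 9.31 and 9.52 in vehicle arrays and 9.44, 9.47, 9.44, 9.58 and 9.45 in dosed arrays. The groups overlapped in both. Each differed by 0.06, with an SE of 0.06 and 0.07 and 95% intervals from -0.08 to 0.20 and from -0.08 to 0.20. In neither was vehicle 5 low, and in Psmd3 it was above 4 of the 5 dosed arrays.

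Of the 4 assembly chaperones, 2 rose, where 3.32% of all genes did. Psmd5, which holds ATPases of the base before they join the particle, was 9.37, 9.51, 9.55, 9.58 and 9.35 in vehicle arrays 1 to 5 and 9.94, 10.05, 9.96, 9.86 and 9.90 in dosed arrays 1 to 5. Its groups were well apart, and it rose by 0.47 ± 0.07 (SE, limma adjusted p = 0.00144). Psmd9, another chaperone of the base, was 9.22, 9.13, 9.19, 9.16 and 9.09 in vehicle arrays and 9.56, 9.47, 9.49, 9.51 and 9.40 in dosed arrays. It rose by 0.33 ± 0.06 (SE, limma adjusted p = 0.00496), and a dim second probe set differed by 0.04. With the GAPDH measure in the model Psmd5 lay at 0.42 ± 0.11 (SE, limma adjusted p = 0.106) and Psmd9 at 0.27 ± 0.09 (SE, limma adjusted p = 0.196). Psmd10, also called gankyrin, differed by 0.17 ± 0.10 (SE, limma adjusted p = 0.485) with overlapping groups, by 0.07 without vehicle 5 and by -0.14 ± 0.13 (SE) with the GAPDH measure in the model. Pomp, which matures the core particle, differed by 0.19 ± 0.07 (SE, limma adjusted p = 0.16) without overlap. The calls of Psmb5, Psmd8, Psmd14, Psmd5 and Psmd9 held whichever single array was left out.

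**Figure D3:**
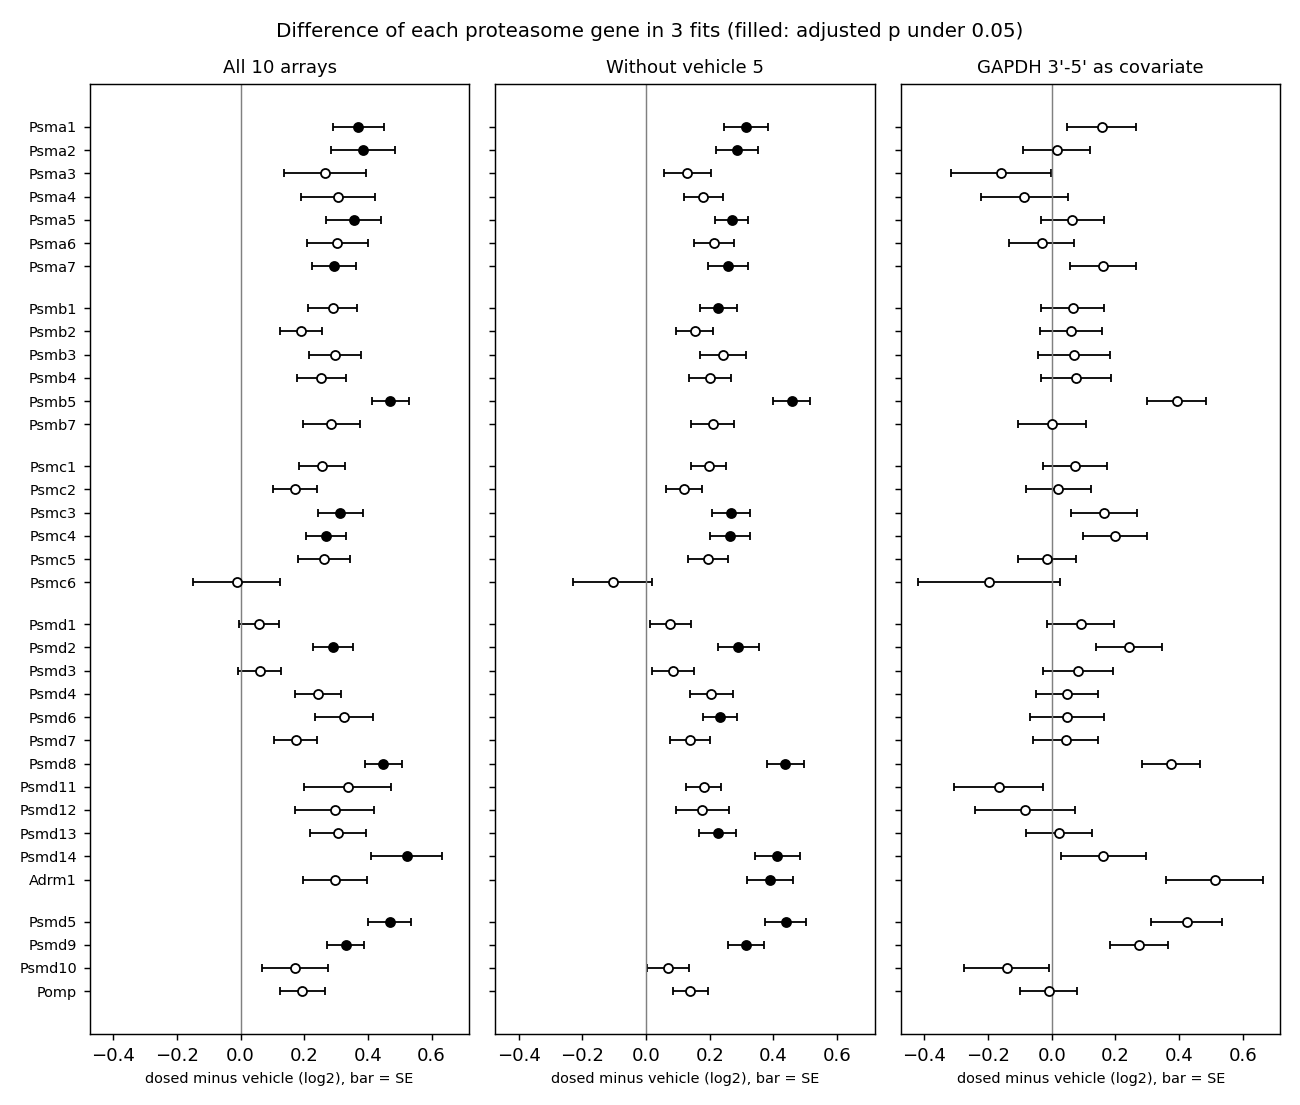
Each panel gives the dosed minus vehicle difference of the 35 genes on the log2 scale with its SE, for all 10 arrays, without vehicle 5, and with the 3′ minus 5′ difference of GAPDH as a covariate; filled points have a limma adjusted p under 0.05. The filled points number 12, 16 and 0, and Psmb5, Psmd8, Adrm1 and Psmd5 keep a difference above 0.37 in the last panel.

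Proteasome genes also varied together within the groups. After removal of the group means, the median correlation between pairs of core genes over the 10 arrays was 0.81 (78 pairs), between core and regulatory genes 0.62 (234 pairs) and between regulatory genes 0.42 (153 pairs). Over all pairs of genes, dim genes included, the median was 0.004. The members were bright, the lowest at percentile 69 of mean signal, and no median was taken over pairs of like brightness. All pairs of core genes were positive, and 69.3% of pairs of regulatory genes. These pairs share the same 10 arrays, and vehicle 5, the lowest array in 12 of 13 core and 12 of 18 regulatory genes, enters each of them. The SD was larger in vehicle than in dosed arrays in 30 of the 35 genes. Neither that count nor the counts with vehicle 5 lowest were taken over all genes, so they are not shown to be particular to the proteasome.

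The inducible subunits that replace the catalytic ones in the immunoproteasome went the other way. Psmb8, which takes the place of Psmb5, was 11.26, 10.80, 10.90, 10.90 and 11.38 in vehicle arrays 1 to 5 and 9.95, 10.51, 10.49, 10.12 and 10.30 in dosed arrays 1 to 5. The groups did not overlap, and it fell by 0.77 ± 0.13 (SE, limma adjusted p = 0.0051). With the GAPDH measure in the model it lay at -0.38 ± 0.18 (SE, limma adjusted p = 0.351). Psmb9 differed by -0.52 ± 0.15 (SE, limma adjusted p = 0.0722) and Psmb10 by -0.22 ± 0.10 (SE, limma adjusted p = 0.33), so that 1 of 3 measured inducible subunits fell. Psmb9 passed without vehicle 3 (-0.60, adjusted p = 0.049) or dosed 3 (-0.60, adjusted p = 0.0469). Macrophage markers were lower beside them, with 7 of 7 measured below 0, where 7305 of all 14217 genes were. Of these markers 1 fell, C1qa (-0.37 ± 0.08, SE, limma adjusted p = 0.0197, named after its value was seen), where 3.11% of all genes fell. Their summed levels (log2) were 12.78 to 13.05 in vehicle and 12.28 to 12.69 in dosed arrays. The part of these markers in the difference was not tested.

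The genes around the proteasome moved unevenly. Beside the counts that follow, 3.32% of all genes rose and 3.11% fell. At an unadjusted limma p under 0.05, 9.62% of all genes were higher and 10.2% lower. Of 4 measured activators and inhibitors 0 passed limma, and at an unadjusted p under 0.05 1 was higher and 0 lower: Psme4 at 0.21 ± 0.08 (SE), named after its value was seen. Psme1 and Psme2, of the activator induced by interferon, differed by -0.04 ± 0.06 and -0.10 ± 0.08 (SE). Of the 4 other chaperones of the core 2 rose and 0 fell: Psmg3 by 0.40 ± 0.07 (SE, limma adjusted p = 0.0044) and Psmg2 by 0.26 ± 0.07 (SE, limma adjusted p = 0.0419). The call of Psmg2 ended without any single array other than dosed 3 (adjusted p up to 0.11). Of 10 enzymes and shuttles bound to the proteasome 2 rose. Usp14, a deubiquitinase on the base, rose by 0.41 ± 0.07 (SE, limma adjusted p = 0.00555), and Sqstm1, an adaptor that carries ubiquitin-tagged proteins to autophagy and is a known NRF2 target, by 0.60 ± 0.10 (SE, limma adjusted p = 0.00327). With the GAPDH measure in the model Sqstm1 lay at 0.77 ± 0.15 (SE, limma adjusted p = 0.039) and Usp14 at 0.23 ± 0.10 (SE, limma adjusted p = 0.324). Psmg3 (0.39, adjusted p = 0.144) and Psmg2 (0.19, adjusted p = 0.434) did not pass there. Of 2 measured activating enzymes of ubiquitin 0 passed limma, with Uba1 at -0.15 ± 0.06 and Uba6 at 0.12 ± 0.13 (SE), and at an unadjusted p under 0.05 0 were higher and 1 lower.

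Of the transcription factors that act on proteasome genes, Nfe2l2 rose and Nfe2l1 did not pass. Nfe2l2 was 10.44, 10.63, 10.70, 10.67 and 10.25 in vehicle arrays 1 to 5 and 11.51, 11.64, 11.80, 11.57 and 11.43 in dosed arrays 1 to 5. All dosed arrays lay well above all vehicle arrays, a rise of 1.05 ± 0.10 (SE, limma adjusted p = 6.49e-05) that kept its call with the GAPDH measure in the model (0.85 ± 0.15, SE, limma adjusted p = 0.0193). Nfe2l1 was 8.16, 7.94, 7.84, 8.02 and 7.69 in vehicle arrays and 7.85, 8.36, 8.26, 7.72 and 8.27 in dosed arrays. Dosed 1 and dosed 4 lay among the vehicle arrays, and the difference was 0.16 ± 0.13 (SE, limma adjusted p = 0.65).

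Probe sets of Nfe2l1 disagreed: those not used differed by 0.18 ± 0.07 (SE, limma adjusted p = 0.242) and by 0.50 ± 0.07 (SE, limma adjusted p = 0.00136), and the mean of all its probe sets passed at 0.28 (adjusted p = 0.0111). The NRF1 protein is controlled by cleavage and turnover, which arrays do not measure. Of the 8 genes of NRF1 and its processing 1 rose, Ufd1, a partner of the unfoldase Vcp, at 0.28 ± 0.06 (SE, limma adjusted p = 0.0241), a call that ended without vehicle 1, vehicle 4, dosed 4 or dosed 5 (adjusted p up to 0.0673) and with the GAPDH measure in the model (0.15, adjusted p = 0.473). Vcp differed by 0.09 ± 0.07 and Ngly1, which removes sugar chains from NRF1, by -0.16 ± 0.16 (SE). Of 7 genes of NRF2 control 2 rose, Nfe2l2 and its small Maf partner Mafk (0.82 ± 0.10, SE, limma adjusted p = 0.000529). With the GAPDH measure in the model Mafk lay at 0.64 ± 0.16 (SE, limma adjusted p = 0.0889). Of 15 measured NRF2 targets 11 rose and 0 fell, with a median difference of 0.74, where 3.32% of all genes rose and 3.11% fell. Those that did not pass were Gclm (0.18), Hmox1 (0.12), Taldo1 (0.03) and Tkt (-0.06), named after their values were seen. Whether NRF2 or another factor acted on these genes was not tested. Nqo1, a quinone reductase, rose by 2.85 ± 0.09 (SE, limma adjusted p = 3.03e-09), Abcc3, an anion exporter, by 1.93 ± 0.17, Me1, the malic enzyme, by 1.89 ± 0.12 and Gsta3, a glutathione transferase, by 1.62 ± 0.16. With the GAPDH measure in the model Nqo1 lay at 3.00, Abcc3 at 1.73, Me1 at 1.84 and Gsta3 at 1.15. Each kept its call there (limma adjusted p = 1.27e-06, 0.013, 0.00184 and 0.0219), and the other targets of this list are not given under that model. Of the 35 measured proteasome genes, 0 differed by over 1.5-fold.

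**Figure D4:**
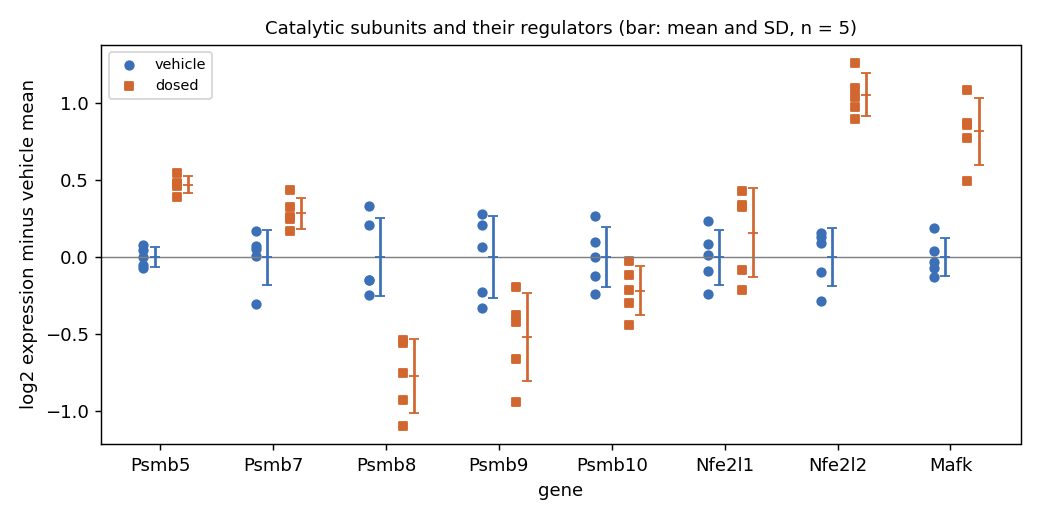
Points are single arrays as log2 expression minus the vehicle mean of the gene, for 2 constitutive catalytic subunits (Psmb5, Psmb7), the 3 inducible ones (Psmb8, Psmb9, Psmb10) and 3 transcription factor genes; bars give the mean and SD (n = 5). Dosed arrays are higher without overlap in Psmb5, Nfe2l2 and Mafk, lower without overlap in Psmb8, and overlap the vehicle arrays in Psmb7, Psmb9, Psmb10 and Nfe2l1.

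Apart from the 3′ to 5′ measures, the arrays were close in level. The median over probe sets ran from 6.21 to 6.29, and pairs of arrays correlated between 0.983 and 0.997. RMA, the normalization of the deposited values, brings arrays to a like level, so the close medians are no measure of RNA quality. The summed level of 7 measured hepatocyte markers was 17.18 to 17.22 in vehicle and 17.18 to 17.23 in dosed arrays (log2), which bears out the liver label. Of these 7, 1 rose and 0 fell, where 3.32% of all genes rose and 3.11% fell. The 1 that rose was Apoa1, at 0.38 ± 0.07 (SE, limma adjusted p = 0.00883), named after its value was seen. Markers of T and NK cells, B cells, endothelium, stellate cells and bile duct cells held 0 that passed limma, and at an unadjusted p under 0.05 those lower numbered 2 and those higher 0, where 10.2% of all genes were lower. Their part in the proteasome differences was not tested.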

How the data were processed

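The deposited values are log2 expression on an Affymetrix rat 3′ array, made by the authors with RMA per the submitters' processing notes, and were used as deposited. Precision is limited by having 5 arrays in a group. Of 31042 probe sets outside 57 controls, 20826 carried 1 gene symbol, 436 several and 9780 none in an annotation of 2016. Each gene was read from its brightest probe set with 1 symbol. Dosed and vehicle arrays were set against each other by a two-sided limma model (version 3.58.1, R version 4.3.3; lmFit, then eBayes), tested on simulated data first. Its p-values were adjusted by Benjamini-Hochberg across the 31042 probe sets, with 0.05 as threshold. Columns of per-sample values not used numbered 0. All members were named, and of each related list up to 4 past the threshold, or the 2 brightest where fewer than 2 passed, plus Nfe2l1, Nfe2l2, Psmb8, Psmb9, Psmb10 and Nqo1. The members and lists were chosen with earlier results of these data known. Alternatives covered variance, normalization, filter, threshold, probe set choice, 3′ to 5′ covariates and single arrays left out. The count without overlap lacking vehicle 5 was added after the data were seen. Promoters came from RefSeq, assembly GRCr8.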

Additional observations from a re-analysis of the deposited data

Results flagged for a closer look

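Of 70 groups of 5 arrays tested, 2 for each member, 9 held an array far from the rest by Dixon's criterion at its 95% level, which chance alone meets in a small share of groups. In 8 of the 9 the array was vehicle 5, which was low. Its value on the log2 scale was 9.74 in Psma4, where the nearest vehicle array was 10.28, 10.74 in Psma5 (nearest 11.16) and 11.59 in Psma6 (nearest 11.99). It was 9.95 in Psmc1 (nearest 10.22) and 11.43 in Psmc2 (nearest 11.67). It was 9.47 in Psmd6 (nearest 9.88), 10.70 in Psmd11 (nearest 11.45) and 11.97 in Pomp (nearest 12.22). In Psmd3 the array was dosed 4, which was high at 9.58 (nearest 9.47). These genes share the same arrays, so the flags are not independent.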

How the results depend on the processing

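Members that rose numbered 12, and 0 fell under every alternative run. The count was 5 with a replicate block, 4 at a threshold of 0.01, 0 with the GAPDH 3′ minus 5′ covariate and 6 with that of beta-actin. It ran from 5 to 16 when single arrays were left out: 5 without dosed 5, 7 without vehicle 1, vehicle 4 or dosed 1, and 16 without vehicle 5. It was 9 without moderation of the variance, 11 with arrays centred, 13 with an intensity trend or without dim probe sets, 15 with the mean of probe sets or adjustment over 1 probe set per gene, 17 after renewed quantile normalization and 18 with array weights. The median difference fell to 0.065 for 20S and 0.061 for 19S genes with the GAPDH covariate, was 0.35 and 0.26 with that of beta-actin, and ran from 0.23 to 0.33 and from 0.20 to 0.29 with single arrays left out. The cause of these shifts was not tested. Equal replicate numbers did not pair the arrays: deviations correlated between -0.26 and 0.25, and 1 of 5 vehicle arrays matched its own number best. With 5 arrays a group, small differences such as those of Psmd1 and Psmd3 are limited by their intervals.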
